A study of Mus musculus with 109 samples.

Results

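The 9 genes described here set the balance between survival and death of a cell. Bcl2, Bcl2l1 and Mcl1 hold apoptosis back, Bax and Bak1 open the mitochondrial membrane, Bbc3 and Bcl2l11 set them free, and Trp53 and Mdm2 encode p53 and the ligase that degrades it. They were taken by symbol from a table of read counts of 15973 genes in 109 single cells, which listed all 9. The count of a gene was divided by the total of its cell and multiplied by 1000000 to give CPM. The cells came from the cerebella of C57BL/6 mice at postnatal day 7, were enriched for granule cell progenitors (GCPs) on a Percoll gradient and were captured singly on C1 Fluidigm chips. The strain is that of the labels, whereas the animal methods of the study name ICR pups, and which of them these cells came from was not settled. The labels name no treatment or genetic change for any of them, so cells were compared with cells of the same preparation. The labels divided them into 6 library groups of 18 or 19 cells and did not say which animals these came from. The p-values below therefore measure the spread between library groups, which may be technical.

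GCPs divide in the outer layer of the young cerebellum and then leave the cycle to become granule cells (GCs). Cells with Mki67, a gene of dividing cells, at 100 CPM or more are called Mki67-high (32 cells), and those below 10 CPM are called Mki67-low (75 cells). Another 2 cells lay between. The cells closest to the upper bound had 132 and 66.4 CPM of Mki67, and those closest to the lower bound had 21.3 and 9.27 CPM. Cells were also split at the median CPM of Dcx, a microtubule protein of young neurons, into 55 Dcx-high and 54 Dcx-low cells. That median was 934.5 CPM, and the median of the Mki67-low cells alone, which split them into 38 and 37 cells, was 1781 CPM.

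Proteins of the Bcl2 family meet at the outer membrane of mitochondria. The anti-apoptotic members bind the effectors Bax and Bak1 and keep them from forming pores, through which cytochrome c would leak and activate caspases by way of Apaf1. BH3-only proteins such as Bbc3 (Puma) and Bcl2l11 (Bim) occupy the anti-apoptotic members and so release the effectors. p53 is a transcription factor that is held at a low level by the ubiquitin ligase Mdm2 and accumulates after DNA damage. Bbc3, Bax and Mdm2 are among its known targets, the last of them forming a feedback loop. In the postnatal cerebellum, part of the granule lineage dies during normal development, and loss of p53 is known to speed up medulloblastoma, a tumour that arises from GCPs.

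Because p53 and known targets of it are among the genes, the promoters of all 9 were searched for the p53 decamer, the motif of which p53 binds a pair. The search covered 250 bases before and 50 bases after the RefSeq starts of the GRCm38.p6 build, in 14 windows of the 9 genes, and the decamer reads the same on both strands. It was found in 3 of these 14 windows, 1 each of Bax, Trp53 and Mdm2, and in 8.36% of all 32851 promoter windows of that length. The lines give 60 bases around each match, 5′ to 3′ on the strand of the gene, with the decamer in capitals.
Bax (chr7:45467065-45467124, minus strand, decamer 201 to 192 bases before the start): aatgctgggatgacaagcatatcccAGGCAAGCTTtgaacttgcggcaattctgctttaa
Trp53 (chr11:69580259-69580318, plus strand, decamer 75 to 66 bases before the start): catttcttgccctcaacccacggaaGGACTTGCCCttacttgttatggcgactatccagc
Mdm2 (chr10:117710910-117710969, minus strand, decamer 186 to 177 bases before the start): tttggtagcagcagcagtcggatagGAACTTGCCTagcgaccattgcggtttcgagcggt
A match describes the letters only, and a single decamer is not a complete response element.

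All 9 were protein-coding genes in the GENCODE annotation of GRCm38, spread over chromosomes 1 (Bcl2), 2 (Bcl2l1 and Bcl2l11), 3 (Mcl1), 7 (Bax and Bbc3), 10 (Mdm2), 11 (Trp53) and 17 (Bak1). Their merged exons were 1576 (Bax) to 9157 bases (Bcl2) long. In the exons of Bak1, up to 437 bases overlapped Ggnbp1 on the opposite strand. In Bcl2, 558 bases overlapped an antisense RNA, and in Bax 192 bases were shared with another gene model on the same strand. The strand setting of the counting is not given in the sources used here, so reads of these stretches could not be assigned to either gene with certainty. A processed copy of Trp53 on chromosome 17 had a count in only 4 cells and took 0.0036% of the counts of both.

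The median cell had 3604792 counts. The highest total was 8616017, the lowest 15071 and the next lowest 1110182. Besides that shallow cell, which had 66.4 CPM of Mki67, 2 cells stood apart with 13533 and 12684 genes detected, while no other cell exceeded 6420. Both were Mki67-high and carried at least 5 of 8 astroglial genes at 50 CPM or more, as did 1 further Mki67-high cell. Mki67-high cells had more counts (median 4157698 against 3580460) and more genes (median 4968 against 4193) than Mki67-low cells. The granule lineage list was above 10 CPM in summed level in all 107 cells of both classes. GCP markers summed to a median of 5596 CPM in Mki67-high and 257.9 CPM in Mki67-low cells, and GC markers to 1766 and 6373 CPM. The GCP list holds Mki67, which defines the classes, so part of its difference was fixed in advance. Of its other genes, Ccnd2 was at 10 CPM or more in 32 of 32 Mki67-high and 52 of 75 Mki67-low cells. Pcna was so in 18 and 27 of them, and Sfrp1 in 24 and 28. The Mki67-low class thus included cells with GCP markers. The 8 astroglial genes ranged from 0.20 to 16509 CPM in sum in Mki67-high and from 0 to 25621 CPM in Mki67-low cells. Their sum was 10 CPM or more in 22 Mki67-high and 43 Mki67-low cells. The cells with astroglial genes named below are only the 3 Mki67-high cells with at least 5 of the 8 at 50 CPM or more. The oligodendrocyte list had a median sum of 58.9 CPM (0 to 14031) in Mki67-high and 4.69 CPM (0 to 7140) in Mki67-low cells. Microglial genes summed to 10 CPM or more in 5 Mki67-high cells, at most 645.5 CPM, and in no Mki67-low cell. Genes of Purkinje and GABAergic neurons did so in 2 Mki67-high cells, at most 82.7 CPM, and in 13 Mki67-low cells, at most 9693 CPM. Endothelial genes did so in 2 cells of each class, at most 35.1 and 243.6 CPM. Cells with microglial, endothelial or these neuronal genes were not left out in any alternative. Fos, Jun and Egr1, which respond to dissociation, had a median sum of 92.9 CPM in Mki67-high and 12.8 CPM in Mki67-low cells. The part of these differences in the results below was not tested, except where values without such cells are given.

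Each of the 9 genes was at or near 0 in most cells and reached high levels in some. Trp53 had at least 1 count in 96 of 109 cells, but in 61 of them it stayed below 10 CPM, and in the other 35 it ran from 22.1 to 3557 CPM with a median of 865.2. A level of 10 CPM was therefore taken as the mark of a positive cell, with shares given at other levels where they differ. By that mark, 24 cells had none of the 9 genes, 40 cells had 1, 30 cells had 2 and 15 cells had more.

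**Figure D1:**
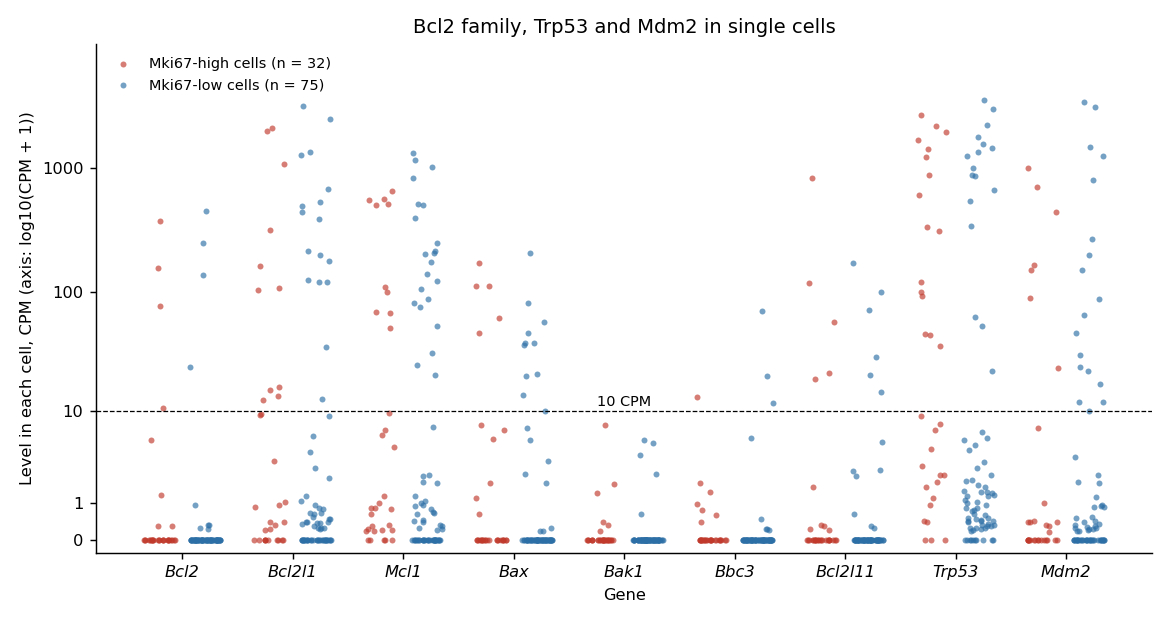
Level of each gene in CPM (logarithmic axis of CPM + 1) in 32 Mki67-high cells (red) and 75 Mki67-low cells (blue), 1 point per cell, with a dashed line at 10 CPM. Most points lie below the line, those of Trp53 above it reach 3557 CPM, and no point of Bak1 reaches the line.

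Of the anti-apoptotic genes, Mcl1, whose protein has a short life, was positive in 32 cells (29.4%, 95% Wilson interval 21.6% to 38.5%), from 20.4 to 1315 CPM with a median of 188.2. Bcl2l1, which encodes Bcl-xL, the survival factor of many young neurons, was positive in 28 cells (25.7%, 18.4% to 34.6%), from 12.6 to 3159 CPM with a median of 207.1. Bcl2, which gave the family its name, was positive in 8 cells (7.34%, 3.77% to 13.8%), from 10.7 to 453.6 CPM, and 3 cells carried 72.2% of its summed CPM. These intervals and those below treat cells as independent, so they cover counting error only and leave out the spread between library groups. The libraries hold no molecular identifiers.

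The effectors and BH3-only genes were found in fewer cells and at lower levels. Bax was positive in 16 cells (14.7%, 9.24% to 22.5%) with a median of 45.8 and a highest level of 206.1 CPM. Bak1 had a count in 11 cells, none of them above 7.54 CPM, so 0 of 109 cells were positive, which allows a share of up to 2.75% by the limit of 3 counts and 3.40% by the Wilson interval. Bbc3 was positive in 4 cells (3.67%, 1.44% to 9.06%), at most 69.0 CPM. Bcl2l11 was positive in 11 cells (10.1%, 5.73% to 17.2%), and a single Mki67-high cell with 833.2 CPM held 56.7% of its summed CPM.

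Trp53 was positive in 35 cells (32.1%, 24.1% to 41.4%) and passed 1000 CPM in 15 of them. Mdm2 was positive in 24 cells (95% interval 15.3% to 30.7%), with a median of 150.5 CPM, and passed 1000 CPM in 5 cells. A cell of library group 1 with 3405 CPM and a cell of group 2 with 3124 CPM, both without a Mki67 count, had the most.

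To compare the genes with each other, the mean CPM of each library group was divided by the exon length in kilobases. Trp53 was highest with 81.0 ± 32.7 CPM per kb (SD, n = 6 library groups). Bcl2l1 (35.8 ± 26.7), Mcl1 (28.8 ± 12) and Mdm2 (24.4 ± 18.6) followed, then Bax with 6.44 ± 5.16, and Bcl2l11 (1.69 ± 2.58), Bcl2 (1.51 ± 2.26), Bbc3 (0.54 ± 0.63) and Bak1 (0.11 ± 0.11) were lowest. No neighbours in this order differed beyond their spread by an exact two-sided sign-flip permutation test over the 6 groups. The lowest p between neighbours was 0.0625, for Trp53 above Bcl2l1 and for Bax above Bcl2l11, each in 5 of 6 groups. The smallest p that 6 groups can give is 0.03125.

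Mki67-high and Mki67-low cells were compared first, by the share of positive cells in each library group. Trp53 was positive in 16 of 32 Mki67-high cells (50%, interval 33.6% to 66.4%) and in 17 of 75 Mki67-low cells (22.7%, 14.7% to 33.3%). In library groups 1 to 6 the share in Mki67-high cells was 25%, 50%, 50%, 66.7%, 37.5% and 80.0%, and that in Mki67-low cells 26.7%, 25%, 10%, 20%, 20% and 30.8%. The share was higher in Mki67-high cells in 5 of 6 groups, with the groups overlapping, and the mean difference was 29.5 ± 19.6 percentage points (SD, n = 6; exact sign-flip p = 0.0625). Over all 6975 genes with 10 or more positive cells, the median difference was 8.80 points, 80.3% of genes lay above 0, and 6.37% of genes reached the difference of Trp53. The difference of Trp53 was 27.4 points without the cells that stood apart, again in 5 of 6 groups. It was 25.9 points, also in 5 of 6 groups, without the 3 cells with astroglial genes, all of them Mki67-high. Mki67-low cells with astroglial counts stayed in.

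Counting cells at 1 CPM or more, Trp53 was present in 26 of 32 Mki67-high cells (81.2%) and 38 of 75 Mki67-low cells (50.7%). The share was then higher in Mki67-high cells in all 6 library groups. In groups 1 to 6 the shares were 100%, 100%, 75%, 100%, 62.5% and 80.0% in Mki67-high cells and 60.0%, 50%, 50%, 46.7%, 40% and 53.8% in Mki67-low cells. The mean difference was 36.2 points (exact sign-flip p = 0.03125, the smallest possible), and no gene of the 8659 tested at that level had an adjusted p under 0.34. Of these genes 8.15% were higher in all 6 groups, and Trp53 was the only 1 of the 7 members tested. The difference was 34.5 points in cells thinned to 1110182 counts, 34.7 points without the cells that stood apart and 33.8 points without the cells with astroglial genes, each time in 6 of 6 groups.

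At a higher level and at a single count the difference of Trp53 was smaller. At 100 CPM or more, 11 of 32 Mki67-high (34.4%) and 14 of 75 Mki67-low cells (18.7%) were counted, a mean difference of 15.7 points, higher in 4 of 6 groups (exact sign-flip p = 0.2188). With a single count, 29 of 32 (90.6%) and 65 of 75 cells (86.7%) were counted, a mean difference of 8.37 points, higher in 4 of 6 groups (exact p = 0.125), which 45.3% of genes reached. In thinned cells the single-count difference was 25.3 points, higher in 6 of 6 groups (exact p = 0.03125).

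Among positive cells the median level of Trp53 lay the other way, at 470.3 CPM in Mki67-high and 1005 CPM in Mki67-low cells. The levels overlapped, from 36.0 to 2655 CPM and from 22.1 to 3557 CPM. All 3 cells with astroglial genes were among these Mki67-high cells, at 334, 119.2 and 310.8 CPM, below their median. These medians pool cells of all library groups, and their difference was not tested. The counts summed over the cells of a class overlapped between the classes. In library groups 1 to 6 the summed level of Trp53 was 24.0, 527.1, 859.0, 303.6, 25.2 and 867.4 CPM in Mki67-high cells and 434.5, 624.8, 153.4, 112.3, 423.7 and 112.8 CPM in Mki67-low cells. It was higher in Mki67-high cells in groups 3, 4 and 6 and lower in groups 1, 2 and 5.

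The other members showed smaller differences in share. Bcl2l1 was positive in 11 of 32 Mki67-high (34.4%) and 17 of 75 Mki67-low cells (22.7%), with a mean difference over groups of 6.99 ± 24.6 points (exact sign-flip p = 0.5312). Mcl1 was positive in 31.2% and 29.3% (5.04 ± 34.3 points, p = 0.6875 by the same exact test), and its 4 Mki67-high cells of group 1 were all negative while 3 of the 4 in group 2 were positive. Bcl2 was positive in 4 of 32 (12.5%) and 4 of 75 cells (5.33%), a mean difference of 7.71 ± 14.5 points (exact p = 0.375). Bax was positive in 15.6% and 14.7% (1.43 ± 17.9 points, exact p = 0.8125), and without the cells that stood apart the shares were 10% and 14.7%. Bcl2l11 was positive in 5 of 32 (15.6%) and 6 of 75 cells (8%), Bbc3 in 1 of 32 and 3 of 75, and Bak1 in none. Mdm2 was positive in 21.9% and 22.7% (2.99 ± 23.0 points, exact p = 0.875), with a higher share in Mki67-high cells in 2 of 6 groups, and the mean difference was -0.46 points without the cells that stood apart. At 10 CPM, 7.64% of all 6975 genes had a higher share in Mki67-high cells in all 6 groups, and none of the 6 members tested did.

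**Figure D2:**
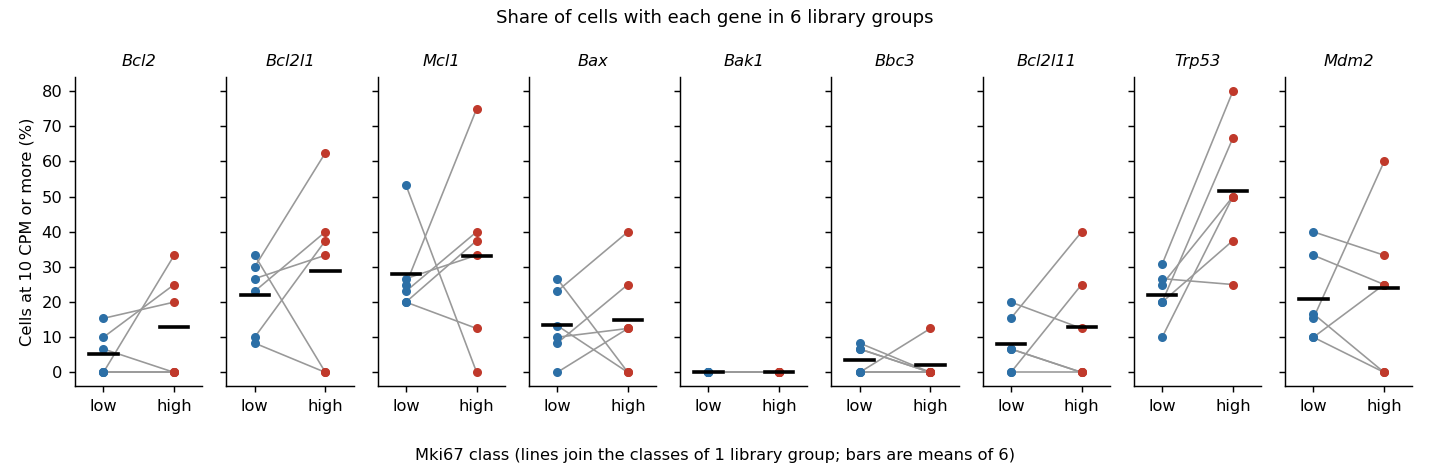
Share of cells at 10 CPM or more (%) in Mki67-low (blue) and Mki67-high (red) cells, 1 point per library group, with lines joining the classes of a group and black bars for the means of 6 groups. The bars of Trp53 lie 29.5 percentage points apart and 5 of its 6 lines go up, while the lines of Mcl1, Bax, Bcl2l1 and Mdm2 go both up and down.

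At the level of a single count, Mcl1 was found in 27 of 32 Mki67-high (84.4%) and 44 of 75 Mki67-low cells (58.7%), higher in all 6 library groups. The mean difference was 33.4 points (exact sign-flip p = 0.03125), and 29.0 points after thinning. Bak1 was found in 6 of 32 (18.8%) and 5 of 75 cells (6.67%), also higher in all 6 groups, though after thinning in 5 of 6 (exact p = 0.0625), and each group had only 1 Mki67-high cell with a count. Of the 11473 genes tested at that level 5.36% were higher in all 6 groups, 2 of the 9 members among them, and the smallest adjusted p of any gene was 0.46.

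The summed counts were compared with the quasi-likelihood test of edgeR over 9084 genes, with adjustment over all of them. In this comparison 2 genes (0.022%) had an adjusted p under 0.01, Cdc20 and Tacc3, both genes of mitosis and higher in Mki67-high cells, and 666 had an unadjusted p under 0.05. None of the 8 members tested was among the latter, and Bak1 was too low to be tested. The log2 fold change of Mki67-high over Mki67-low cells was 0.19 ± 0.82 (SE) for Trp53, -1.20 ± 1.55 for Mdm2, -0.51 ± 1.39 for Bcl2l1, -0.01 ± 1.09 for Mcl1 and 0.29 ± 2.14 for Bcl2. It was 1.06 ± 1.39 for Bax, -1.71 ± 1.31 for Bbc3 and 2.35 ± 2.12 for Bcl2l11, whose cell with 833.2 CPM lay in the Mki67-high class. Adjusted p-values of edgeR ran from 0.80 (Bbc3) to 0.998 (Mcl1), and 4 of the 8 were above 0, with a median of 0.09 against -0.18 over all genes. With the RLE size factors in place of TMM the median of all genes was 0.09, and Mcl1 then lay at 0.44. With the library groups 3 or 6 left out, Trp53 was at -0.14 and -0.18. Bcl2 and Bcl2l11 had sums of 0 in some groups (2 and 3 Mki67-high, 2 and 1 Mki67-low), so their fold changes depend on the fit. With the library group as a replicate block that of Bcl2l11 was -1.42, and with Mki67 of 50 CPM or more against 0 counts that of Bcl2 was -1. Standard errors of 0.82 to 2.14 mean that differences of several fold were not detectable with these sums.

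Taken cell by cell, the mean log2(CPM + 1) of Trp53 was 5.21 in Mki67-high and 2.79 in Mki67-low cells, a difference of 2.42 ± 2.04 (SD, n = 6; exact sign-flip p = 0.125), higher in 4 of 6 groups. Over 6975 genes, 9.56% were higher and 1.28% lower in Mki67-high cells in all 6 groups by this measure, and none of the 6 members tested was either. The differences of the other 5 were 0.77 for Mcl1, 0.54 for Bax, 0.35 for Mdm2, 0.30 for Bcl2l11 and 0.20 for Bcl2l1, beside a median of 0.54 over all genes.

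The question with Dcx was whether the members differ between less and more mature cells. Dcx itself was unequal between the Mki67 classes, since 7 of 32 Mki67-high and 46 of 75 Mki67-low cells lay at or above its median. Trp53 was positive in 17 of 55 Dcx-high (30.9%) and 18 of 54 Dcx-low cells (33.3%), with a mean difference of -4.47 ± 12.98 points (SD, n = 6; exact sign-flip p = 0.375). Mdm2 was positive in 14 of 55 (25.5%) and 10 of 54 cells (18.5%), a mean difference of 6.77 ± 13.5 points (exact p = 0.2812), with a higher share in Dcx-high cells in 4 of 6 groups.

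The largest fold change of a member with Dcx was that of Mdm2. Its summed level in library groups 1 to 6 was 500.2, 384.9, 3.28, 372.7, 1.82 and 53.7 CPM in Dcx-high cells and 53.3, 5.28, 107.4, 62.0, 0.020 and 73.4 CPM in Dcx-low cells. It was higher in Dcx-high cells in groups 1, 2, 4 and 5, and the groups overlapped. The 4 cells with the most Mdm2, from 1257 to 3405 CPM, were all Dcx-high and Mki67-low. The first of them lay exactly at the Dcx median of 934.5 CPM and held 10860 of the 11447 Mdm2 counts of the Dcx-high cells of group 1. The log2 fold change was 2.38 ± 1.44 (SE), with an unadjusted p of 0.12 and an adjusted p of 0.97 in edgeR, and was 1.97 without group 1. Trp53 gave 0.41 ± 0.91, Bcl2 1.05 ± 2.27, Bax 0.31 ± 1.33, Bcl2l1 -0.23 ± 1.31, Mcl1 -0.41 ± 0.99, Bcl2l11 -1.28 ± 1.94 and Bbc3 -1.60 ± 1.59. Of 9129 genes tested 0 (0%) had an adjusted p under 0.01 in edgeR, 418 had an unadjusted p under 0.05 with no member among them, and DESeq2 on the same sums gave 18. By mean log2(CPM + 1), 5.78% of 6975 genes differed in the same direction in all 6 groups, and none of the 6 members tested did.

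Within the Mki67-low cells alone, 6 members could be tested by mean log2(CPM + 1). Only Bax, an effector gene, differed in the same direction in all 6 library groups. The mean log2(CPM + 1) of Bax was 1.48, 0.79, 0.65, 1.42, 0.39 and 1.71 in the Dcx-high cells of groups 1 to 6 and 0.93, 0.35, 0, 1.39, 0 and 0.97 in the Dcx-low cells. Every group was higher in Dcx-high cells, in group 4 by little, and values of different groups overlapped. Some of these values lay near the floor. The Dcx-high cells held 34 Bax counts in group 3 and 6 in group 5, against 0 in the Dcx-low cells of both. In group 5 no cell of either class was positive. The mean difference was 0.47 ± 0.25 (SD, n = 6; exact sign-flip p = 0.03125), with an adjusted p of 0.88 over all genes, and 2.94% of 6974 genes differed in the same direction in all 6 groups. Bax was positive in 7 of 38 Dcx-high (18.4%) and 4 of 37 Dcx-low cells (10.8%), a mean difference of 8.04 ± 7.10 points (SD, n = 6; exact sign-flip p = 0.0625). Its log2 fold change on sums was 1.73 ± 1.56 (edgeR, adjusted p = 0.9999).

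The other members split by Dcx within Mki67-low cells gave log2 fold changes of 1.24 ± 1.92 for Mdm2, 0.44 ± 1.395 for Trp53, 0.41 ± 1.82 for Bcl2l11, 0.12 ± 1.57 for Bcl2l1 and -1.70 ± 1.30 for Mcl1, none past the test. Bcl2, Bbc3 and Bak1 were too low to be tested there. Mdm2 was positive in 10 of 38 (26.3%) and 7 of 37 cells (18.9%), with mean log2(CPM + 1) higher in Dcx-high cells in 5 of 6 groups (difference 0.98 ± 1.19, exact sign-flip p = 0.125). Mcl1 was positive in 10 and 12 cells, and Trp53 in 8 and 9. Of 6681 genes 0 (0%) were called by edgeR, 345 had an unadjusted p under 0.05, and DESeq2 gave 71.

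**Figure D3:**
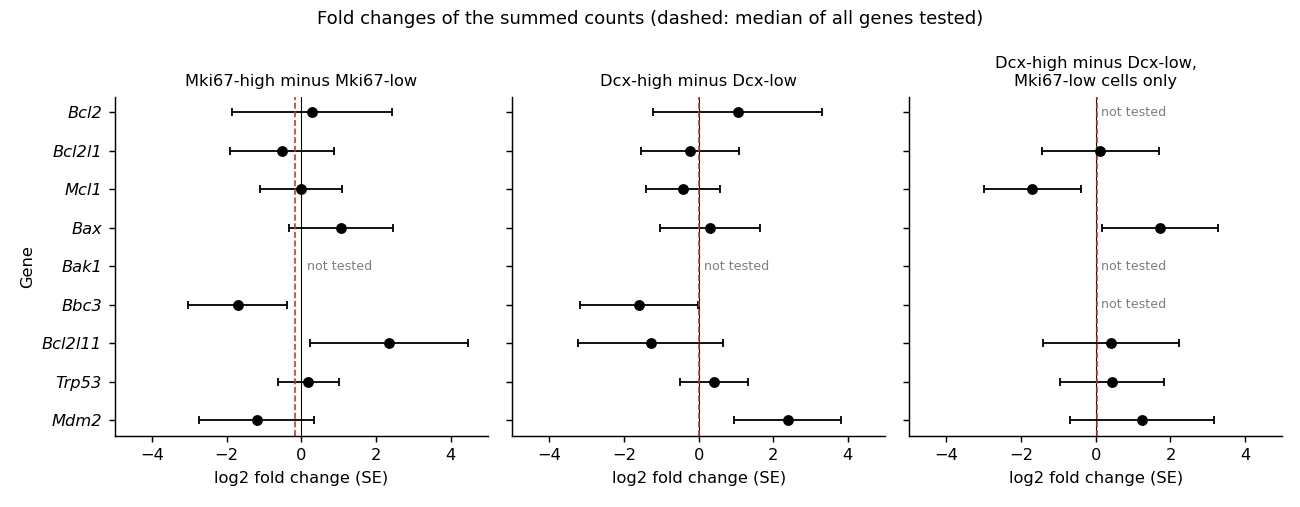
Log2 fold changes of summed counts with their standard errors for the 9 genes in the 3 comparisons (edgeR, sums of 6 library groups per class), with the median of all genes tested as a dashed line. Error bars of Trp53 cross 0 in all 3 comparisons, and Mdm2 lies highest in the Dcx comparison at 2.38.

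**Figure D4:**
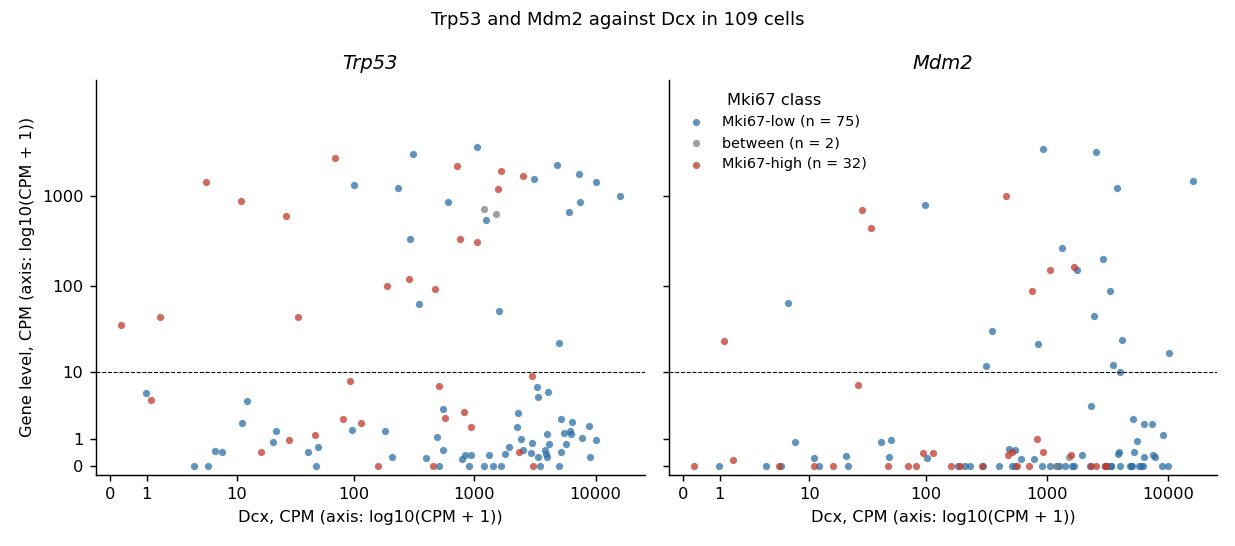
Trp53 and Mdm2 against Dcx in 109 cells, both axes in CPM on a logarithmic scale of CPM + 1, coloured by Mki67 class, with a dashed line at 10 CPM. Trp53-positive cells (35) lie along the whole range of Dcx, and the 4 cells highest in Mdm2 are Mki67-low cells with 934.5 CPM of Dcx or more.

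Other genes of the pathways were taken from 6 lists of 65 genes, of which 51 were in the table and 38 passed the filter for sums in the Mki67 comparison. None of the 38 had an adjusted p under 0.01 or an unadjusted p under 0.05 in edgeR, and 17 had a fold change above 0, with a median of -0.11 beside -0.18 for all genes. By the mean log2(CPM + 1), 31 could be tested, and 4 of them (Apaf1, Atm, Chek1 and Btg2) were higher in Mki67-high cells in all 6 library groups, none lower. The background was 9.56% and 1.28% of genes, and the adjusted p of these 4 was 0.29 (exact sign-flip test, adjusted over all genes).

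Among genes downstream of the mitochondria (18 listed), Apaf1, the scaffold of the apoptosome, was positive in 10 of 32 Mki67-high (31.2%) and 2 of 75 Mki67-low cells (2.67%), with a log2 fold change of 3.72 ± 1.80 (edgeR, unadjusted p = 0.054). Casp2 and Diablo, chosen after their values were seen, lay at 50% against 14.7% and 43.8% against 14.7%. The share of Casp2 was higher in 6 of 6 groups, as was that of 7.64% of all genes, and on sums Casp2 gave -0.31 ± 1.43. Of the 14 genes of this list tested on sums, 5 were above 0, with a median of -0.86 beside -0.18 for all genes. Casp9, the caspase that Apaf1 activates, was positive in 2 of 32 (6.25%) and 6 of 75 cells (8%), at -3.43 ± 2.06. Dffb, a nuclease of apoptosis, was positive in 4 of 32 (12.5%) and 4 of 75 cells (5.33%), yet lay at -3.73 ± 2.25. Its summed level in Mki67-low cells had a median of 6.18 and a maximum of 352.2 CPM over library groups, and the highest such cell had 3005 CPM. Of the p53 regulators (10 listed), the DNA damage kinase genes Atm (43.8% against 4%) and Chek1 (37.5% against 4%) were positive in more Mki67-high cells. The checkpoint kinase gene Chek2, also chosen after its values were seen, was positive in 31.2% and 2.67%. Trp53bp1, which binds at DNA breaks, was positive in 59.4% and 61.3%. Atm, at 1.60 ± 1.68, and Chek1, at 2.64 ± 1.74, did not pass the test on sums. With Dcx, 2 of the 31 pathway genes tested, Chek1 and the kinase gene Atr, were lower in Dcx-high cells in all 6 groups by mean log2(CPM + 1), beside 5.78% of all genes in either direction. Chek1 was positive in 5.45% of Dcx-high and 22.2% of Dcx-low cells, and Atr in 9.09% and 25.9%.

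Of the p53 targets (15 listed), Btg2, an antiproliferative gene, was positive in 13 of 32 Mki67-high (40.6%) and 11 of 75 Mki67-low cells (14.7%), yet its log2 fold change on sums was -0.60 ± 1.03. Rrm2b, a subunit of ribonucleotide reductase, was positive in 2 of 32 (6.25%) and 7 of 75 cells (9.33%), at -4.34 ± 2.13 (edgeR, unadjusted p = 0.057). The highest Mki67-low cell had 3803 CPM of Rrm2b, beside a median of 80.3 CPM in the positive Mki67-low cells. Plk2, a kinase, was positive in 5 of 32 (15.6%) and 3 of 75 cells (4%), at -1.396 ± 2.22. Cdkn1a, the best known target of p53, was chosen after its values were seen, and was positive in 6 of 32 (18.8%) and 2 of 75 cells (2.67%), too few for the sums. Of the 7 targets tested by share, 6 had a higher mean share in Mki67-high cells, as had 80.3% of all genes. The other, Trp53inp1, was positive in 5 of 32 (15.6%) and 17 of 75 cells (22.7%). Of the remaining Bcl2 relatives, Bok, another effector, was positive in 17 of 32 (53.1%) and 14 of 75 cells (18.7%), a fold change of 1.08 ± 1.11 on the log2 scale. Bcl2l2, a further anti-apoptotic gene, was positive in 5 of 32 (15.6%) and 7 of 75 cells (9.33%). The BH3 genes Bad, Bnip3 and Bnip3l were positive in 18.8%, 15.6% and 40.6% of Mki67-high and 12%, 12% and 48.0% of Mki67-low cells.

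**Figure D5:**
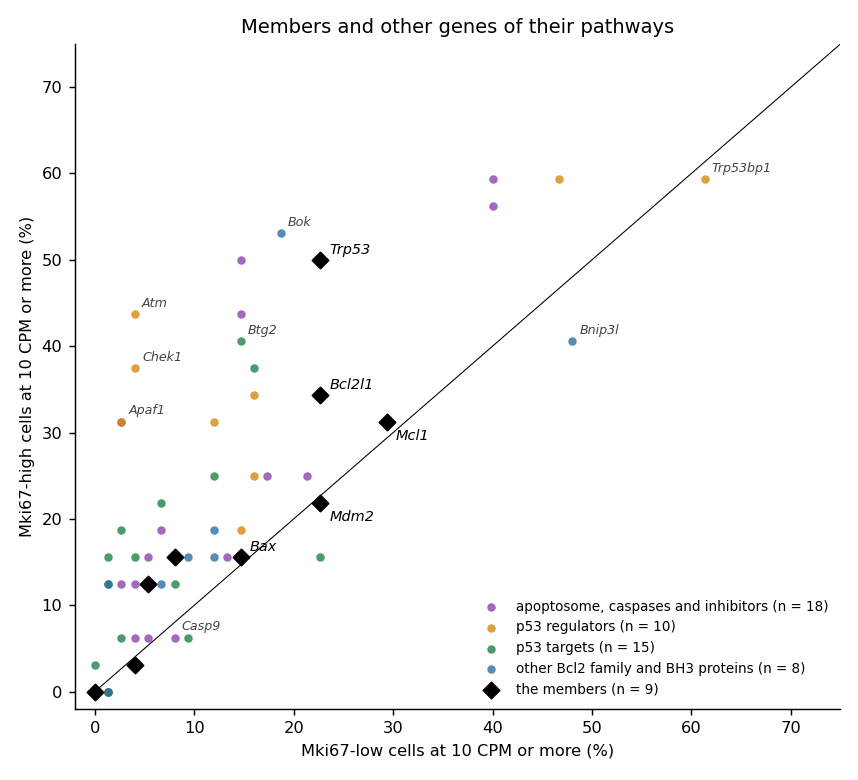
Share of cells at 10 CPM or more (%) in Mki67-low (x axis) and Mki67-high cells (y axis) for the 9 members (diamonds) and 51 other pathway genes (dots, coloured by list), with the line of equal shares. Trp53 (22.7% and 50%), Atm, Casp2, Bok, Chek1, Diablo, Apaf1 and Chek2 lie well above the line, and Mcl1, Mdm2 and Bax lie close to it.

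Cells were then counted by which of the 9 genes they held together. No anti-apoptotic gene was positive in 53 cells, exactly 1 in 45, exactly 2 in 10 and all 3 in 1 cell, and Bcl2l1 and Mcl1 met in 8 cells. An effector or BH3-only gene was positive in 28 cells, 16 of which had no positive anti-apoptotic gene. Trp53 and Mdm2 met in 8 cells, while 27 cells were positive for Trp53 without Mdm2 and 16 for Mdm2 without Trp53. Each gene was positive in a minority of cells, so the single shares alone would give few such meetings. Whether members met more or less often than that was not tested. The 4 cells with 5 or 6 positive members were all Mki67-high, and all 3 cells with astroglial genes, 2 of them with more than 10000 genes detected, were among them.

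Over the 36 pairs of members, Spearman correlations of log2(CPM + 1) across 109 cells ran from -0.15 to 0.28 with a median of 0.06. The highest were Mcl1 with Mdm2 (0.28) and with Trp53 (0.22). These cells share library groups and depth, and the members themselves correlated with the number of genes detected at up to 0.35 (Mcl1). Trp53 correlated with Mki67 at 0.26 and with Dcx at -0.01, and Mdm2 at -0.10 and 0.10. Among 3920 other genes positive in at least 20 cells, those most like Trp53 over the cells were Rpa1 (0.39), Psme3 (0.37) and Mif (0.37). Those most like Mdm2 were Arl8a (0.46), Nploc4 (0.40) and Sez6l (0.35), and those most like Mcl1 were Gatad2a (0.41), Iars (0.41) and Dut (0.38). For Bcl2l1 they were Exoc5 (0.36), Slc39a6 (0.36) and Tmco1 (0.35), and the remaining members were positive in too few cells for this comparison. These genes were picked as the highest of 3920, and their correlations were not tested. The 95% quantile over all these genes was 0.2399 for Trp53, 0.1918 for Mdm2, 0.2355 for Mcl1 and 0.1904 for Bcl2l1.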

How the data were processed

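Single-cell Smart-seq libraries of 109 cells were used. Per the submitters' processing notes, STAR 2.4.1d, HTSeq 0.6.1 and the mm10 build were used, and the values the authors deposited are read counts per gene and cell without normalization. The annotation and strand setting are not given in the sources used here. Each listed gene had a count in at least 3 cells. Cells were grouped by the library group in their labels. The genes, classes and gene lists were chosen with earlier results of these data known.

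Counts were summed per class and library group, filtered with filterByExpr, normalized by TMM and compared with the quasi-likelihood test of edgeR 4.0.16 in R 4.3.3 with Benjamini-Hochberg adjustment and a threshold of 0.01. Genes that define a class were left out of its comparison. Shares and means of log2(CPM + 1) per library group were compared by exact two-sided sign-flip permutation tests of the differences within each library group. Values over all genes used those at 10 CPM or more in at least 10 cells. For shares at 1 CPM and at a single count they used 8659 and 11473 genes. Unadjusted p-values of the members were computed whatever their number of positive cells. The 3 genes with the smallest unadjusted p in the Mki67 comparison of each list were named, as were the 3 genes most like each member. Pathway genes and cells chosen otherwise were chosen after their values were seen. Scripts for the sums were tested on simulated data with less spread than these sums had, so recovery at this spread was not tested. Alternatives were DESeq2 1.42.0, limma 3.58.1 on means, other size factors, filters, class bounds and detection levels, thinned cells, a library group block, and leaving out library groups or cells. Shares at 1 count or 1 CPM in thinned cells, and at 1 CPM without doubted cells, were added after seeing the data. GENCODE positions and RefSeq promoters are those of GRCm38.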

Additional observations from a re-analysis of the deposited data

Results flagged for a closer look

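The difference of Mdm2 between Dcx-high and Dcx-low cells among Mki67-low cells stood apart in library group 1. Its mean log2(CPM + 1) difference (Dcx-high minus Dcx-low) was -1.413 there and 1.22 to 1.77 in the other 5 library groups, a gap to the nearest that exceeds the 95% critical value of Dixon's test. Of 27 such sets of 6 values, 1 was past that value, and chance flags about 1 in 20. The cell of group 1 with 3405 CPM of Mdm2 had 934.5 CPM of Dcx and so counted as Dcx-low among Mki67-low cells, though as Dcx-high among all cells. Without group 1 the log2 fold change of Mdm2 on sums was 4.88 in place of 1.24.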

How the results depend on the processing

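Of 551 alternative values, 457 kept their direction and side of the threshold and 70 changed sign, mostly fold changes smaller than their standard errors; the cause was not tested. In the Mki67 comparison 2 genes were called, against 171 by DESeq2, 76 by limma on mean log2 values (75.6% of genes higher, against 45.2%), 6 with RLE factors, 6 at an adjusted p under 0.05, 1 without the cells that stood apart, 1 without those with astroglial genes, 0 with Mki67 of 50 CPM or more against 0 counts, and 0 to 1 with a library group left out. With Dcx, DESeq2 called 18 genes, and 71 among Mki67-low cells, against 0 in edgeR.

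Library groups shared by both classes gave a replicate block. Deviations of the same library group correlated at 0.020 to 0.056, 0.019 to 0.046 and -0.006 to 0.039 in the 3 comparisons, and not every group correlated best with its own number, so edgeR was fitted without the block. The sign-flip tests did use the differences within each library group. With the replicate block, 0 genes were called in the Mki67 comparison, and log2 fold changes were 0.16 for Bbc3, -1.42 for Bcl2l11 and -0.067 for Trp53. With Dcx they were -0.53 for Bcl2, -0.55 for Bax and 0.99 for Bcl2l11, and among Mki67-low cells -1.33 for Bcl2l1.

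Other log2 fold changes that changed sign in the Mki67 comparison were those of Mcl1, at 0.44 by DESeq2 and with RLE factors, 0.14 without cells that stood apart, 0.0002 without cells with astroglial genes, 0.16 in thinned counts and 0.77 by limma. By limma Bcl2l1 was at 0.20, Bbc3 at 0.047 and Mdm2 at 0.35. With Mki67 of 50 CPM or more against 0 counts, Bcl2 was at -1 and Bcl2l1 at 0.10. Leaving out a library group gave -1.61 to 0.49 for Mcl1 (0.49 without group 1, 0.38 without 3, 0.19 without 4, 0.11 without 5), -1.80 to 0.22 for Bbc3 (0.22 without 1) and -0.18 to 0.58 for Trp53. With Dcx, limma gave 0.086 for Mcl1, 0.0022 for Bcl2l11 and -0.17 for Trp53, and thinning 0.012 for Bcl2l1. Leaving out a group gave -1.07 to 3.28 for Bcl2, -0.88 to 0.41 for Bcl2l1, -0.996 to 0.0255 for Mcl1, -0.40 to 0.67 for Bax, -3.44 to 0.42 for Bbc3, -2.53 to 2.12 for Bcl2l11, -0.13 to 0.93 for Trp53 and 1.97 to 2.88 for Mdm2. Among Mki67-low cells, limma gave -0.016 for Bcl2l1 and -0.055 for Bcl2l11, and Dcx of 1000 CPM or more against under 100 gave -0.47 and -0.0295. Leaving out a group gave -1.26 to 0.96 for Bcl2l1 (-0.11 without group 6), -0.30 to 2.32 for Bcl2l11, -0.53 to 1.26 for Trp53, 1.37 to 2.13 for Bax and 0.06 to 4.88 for Mdm2.

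Of the share differences (Mki67-high minus Mki67-low, in points), that of Trp53 stayed above 0, at 25.5 to 35.7 with a group left out, 8.37 for a single count, 15.7 at 100 CPM and 36.2 at 1 CPM. At 100 CPM Bcl2 was at -0.064 and Bcl2l1 at -2.60. Against cells with 0 counts of Mki67, Bcl2l1 was at -13.6, Mcl1 at -16.6 and Mdm2 at -5.86. Without cells with astroglial genes Mcl1 was at -1.03, Bax at -2.85 and Mdm2 at -0.46, and without cells that stood apart Bax was at -3.15 and Mdm2 at -0.46. With a group left out, Mcl1 ranged from -3.95 to 16.7, Bax from -1.67 to 7.05 (-1.61 without group 2, -0.78 without 5) and Mdm2 from -5.33 to 6.92. Bbc3 was at 11.3 for a single count (7.5 after thinning) and 4.44 at 1 CPM (4.44 after thinning, 2.36 without cells that stood apart, 0.28 without those with astroglial genes). At 1 CPM Mdm2 was at -3.12 after thinning and -1.29 without either set of cells, and Bcl2l11 at -2.30 and -1.70 without them. With 3 to 8 Mki67-high cells a group, 1 cell moves a share by 12.5 to 33.3 points.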
